A study of Homo sapiens with 15 samples.

Results

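Senescent IMR90 fibroblasts that had been given TRi-1, an inhibitor of thioredoxin reductase 1, were compared with growing IMR90 fibroblasts to see what of the senescent expression state they held, what they lacked and what they had in addition. The comparison used 6 of the 15 RNA-seq libraries of the series, 3 of TRi-1-treated senescent cells and 3 of growing cells, and all 15994 genes that passed a filter on low counts out of 57736 in the count table. Libraries were chosen by their labels alone, not by any measured value. IMR90 is a fibroblast line established from human fetal lung. Growing cells were the growing control condition, with neither inhibitor nor vehicle named. TRi-1 cells were senescent and were treated with TRi-1. Senescent cells given the vehicle DMSO (3 libraries) and senescent cells of the control condition (3 libraries, with no vehicle named) served as senescent references. The 3 remaining libraries, of senescent cells with a hairpin against TXNRD1, entered only shared steps. These were the filter on low counts, the scaling, the estimate of spread and the average level used in choosing named genes. The sources used here name neither the trigger of senescence nor the dose and duration of TRi-1, nor whether replicates came from separate cultures, so p-values measure only the spread between these samples. A change in TRi-1 cells against growing cells therefore holds senescence, inhibitor and any difference in vehicle together.

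Cellular senescence is a lasting exit from the cell cycle in which inhibitors of cyclin-dependent kinases accumulate and genes for DNA replication and mitosis are turned down. Many senescent fibroblasts also release a mixture of interleukins, chemokines, growth factors and matrix-degrading proteases, known as the senescence-associated secretory phenotype, much of it under the transcription factors NF-kB, C/EBP-beta and AP-1. TXNRD1 is the selenoenzyme that returns oxidised thioredoxin to its reduced form at the expense of NADPH, and TRi-1 acts on this protein rather than on its transcript.

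TXNRD1 mRNA checks no label here, because TRi-1 targets the protein. Its level was 1779, 1603 and 1525 CPM (the share of a library's counts that a gene takes, in the usual edgeR unit after TMM scaling) in the growing libraries and 429.6, 420.4 and 443 CPM in the TRi-1 libraries, with 430.2, 399 and 395 CPM under DMSO. The transcript was therefore low in both senescent groups, and TRi-1 and DMSO cells differed by 0.08 ± 0.07 on the log2 scale (SE, adjusted p = 0.483, edgeR quasi-likelihood test with Benjamini-Hochberg adjustment over all genes, as for every adjusted p here). Under an offset on GC, TXNRD1 was called higher than under DMSO (0.11, adjusted p = 0.00535). Totals ran from 18033076 to 28909046 counts per library over the series. Growing replicate 1 and DMSO replicate 1 stood apart from the other libraries of their groups: the chi-square of their counts was 29.8 and 46.1 per gene against the other growing libraries, which differed from each other by 4.69, and 10.1 and 13.6 against the other DMSO libraries, which differed by 1.61. They also had the lowest count-weighted GC content of their groups, and the 3 TRi-1 libraries lay at 47.9% to 48.1%, the growing ones at 46.4% to 47.8% and the DMSO ones at 46.9% to 47.7%. Across 15433 genes, the fold change in TRi-1 against growing cells correlated with transcript GC at a Spearman rho of 0.329, a description of genes that share the same libraries. The part of base composition in single results was not tested, and some values under an offset on GC, or without those 2 libraries, are given beside the result they change.

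TRi-1-treated senescent cells remained far from growing cells. Of 15994 genes tested, TRi-1 cells had 4842 (30.3%) higher and 5161 (32.3%) lower at an adjusted p under 0.05, 62.5% in all, and 2383 and 1669 of them moved at least 2-fold. The DMSO cells, set against the same growing libraries, gave 4406 higher (27.5%) and 4933 lower (30.8%), 58.4% in all, and the senescent control gave 56.9% in all. Directly against DMSO, 1222 genes (7.64%) were higher and 1954 (12.2%) lower in TRi-1 cells, and 65 and 318 of these moved at least 2-fold. The root-mean-square log2 distance between libraries had a median of 1.19 for TRi-1 and growing pairs and 1.196 for DMSO and growing pairs, but 0.538 for TRi-1 and DMSO pairs and 0.389 among the TRi-1 libraries. In bulk RNA, fewer cells of a kind and less RNA per cell cannot be told apart in any of these values.

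Each gene called in DMSO cells was placed by its calls in TRi-1 cells. Of the 9339 genes called in DMSO against growing cells, 7787 (83.4%) were called in the same direction in TRi-1 cells, here termed kept. Of these kept genes, 6057 had no call between TRi-1 and DMSO, 753 were called back towards the growing level and 977 were called further away from it. Another 557 genes (5.96%) were lost, meaning that they had no call against growing cells and a call against DMSO in the opposite direction. A further 98 were reversed, with opposite calls against growing cells in the 2 senescent groups. The other 897 (9.6%) were unresolved, with no call against growing cells in TRi-1 cells and no call against DMSO back towards growing. New genes, called in TRi-1 but not in DMSO cells and called against DMSO in the same direction, numbered 653, of which 287 were higher and 366 lower. Genes called in TRi-1 but not in DMSO cells, without such a call against DMSO, were also unresolved. Both kinds together made 2362 unresolved genes, 14.8% of those tested. Among genes at least 2-fold from growing in DMSO cells, 92.5% were kept, 2.12% lost, 0.198% reversed and 5.17% unresolved. With the senescent control in place of DMSO, only 133 of the 557 lost genes and 160 of the 653 new genes (54 higher, 106 lower) had the same class in the same direction, as had 31 of the 98 reversed genes. The levels in the senescent control are therefore given beside many, but not all, of the genes named from these classes.

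The kinase inhibitor genes CDKN1A and CDKN2B stayed high in TRi-1 cells. In the list of 20 arrest and chromatin genes, 6 rose and 10 fell against growing cells (median -0.43), and 2 were higher and 7 lower than under DMSO (median -0.19). Of all genes tested, 30.3% rose and 32.3% fell against growing cells, and 7.64% were higher and 12.2% lower than under DMSO. The 6 rises lie near the share of all genes. CDKN1A, which encodes the kinase inhibitor p21, measured 289.999, 369.5 and 359 CPM in growing libraries and 1843, 1864 and 1814 CPM in TRi-1 libraries, against 1398, 1611 and 1624 CPM under DMSO. Every TRi-1 library lay above every growing library for CDKN1A, as was so in one direction or the other for 70.3% of all genes (62.1% between DMSO and growing libraries). The change against growing cells was 2.44 ± 0.10 (log2 ± SE, adjusted p = 4.7e-11), with 0.25 ± 0.09 against DMSO (adjusted p = 0.0753). Every TRi-1 library also lay above every DMSO library (the 2 groups did not overlap for 48.7% of all genes), and without growing replicate 1 this difference was called (0.25, adjusted p = 0.0271). CDKN2B, the inhibitor p15, rose from 23.8 ± 1.45 to 131 ± 1.73 CPM (SD, n = 3) and stood at 135 ± 4.87 under DMSO. CDKN2A, which encodes p16 and ARF, was called in TRi-1 cells (21.5, 22.5 and 21.4 CPM against 15.1, 16.7 and 15.3 in growing cells, log2 change 0.47 ± 0.08) and not in DMSO cells (15.3, 18.4 and 18.04 CPM), but under a GC offset its change was -0.14 (adjusted p = 0.586). Lamin B1 (LMNB1) and the chromatin protein HMGB2, both known to decline in senescence, fell from 57.8 ± 4.02 to 6.22 ± 0.527 CPM and from 86.5 ± 5.89 to 10.4 ± 0.688 CPM. Both were lower than under DMSO (11.3 ± 0.847 and 15.5 ± 1.26 CPM) but not called against the senescent control (5.88 ± 0.293 and 10.01 ± 0.194 CPM, adjusted p = 0.693 and 0.757). Of the 28 tested targets of p53, 16 rose in TRi-1 cells, with a median of 0.40, and GADD45A, PLK2 and TP53TG1 fell (21 rose and 6 fell under the offset on GC). Over all genes tested the median was 0.03 in TRi-1 and 0.01 in DMSO against growing cells, and 0.01 in TRi-1 against DMSO. TNFRSF10A, a death receptor, rose from 4.34 ± 0.0982 to 22.9 ± 0.261 CPM.

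Genes for DNA replication and mitosis were low in TRi-1 cells. In the list of S-phase genes, 31 of 35 fell, with a median of -1.59, cyclin E1 (CCNE1) rose by 0.56 ± 0.10, and 32 fell in DMSO cells with a median of -1.51. TYMS, thymidylate synthase, fell from 88.1 ± 2.39 to 23.2 ± 1.19 CPM, and MCM3, a subunit of the replicative helicase, from 69.5 ± 1.79 to 17.7 ± 0.566 CPM. Of 36 mitosis genes, 35 fell against growing cells (median -2.56) and INCENP had no call. Against DMSO, 22 were lower and BUB3, a spindle checkpoint protein, was higher (median -0.42). MKI67, the proliferation antigen Ki-67, measured 250.02, 216 and 217 CPM in growing, 34.3, 34.1 and 34.6 CPM in TRi-1 and 56.2, 57.9 and 57.4 CPM in DMSO libraries. TOP2A, the topoisomerase that untangles chromosomes before division, stood at 332, 289 and 282 CPM in growing, 35.7, 38.1 and 37.6 CPM in TRi-1 and 71.9, 63.3 and 68.96 CPM in DMSO libraries. For both genes the TRi-1 and DMSO libraries did not overlap. The senescent control, however, measured 29.8, 33.6 and 34.2 CPM for MKI67 and 40.2, 37.97 and 42.004 CPM for TOP2A, close to TRi-1 cells. Against that control, none of the 36 mitosis genes was called lower in TRi-1 cells by edgeR (0 at an unadjusted p under 0.05; 9.78% of all genes were called lower), 7 were called higher (5.60% of all genes) and the median was 0.13. Without replicates 1 of the growing and DMSO groups, 19 of the 36 were lower than under DMSO.

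**Figure D1:**
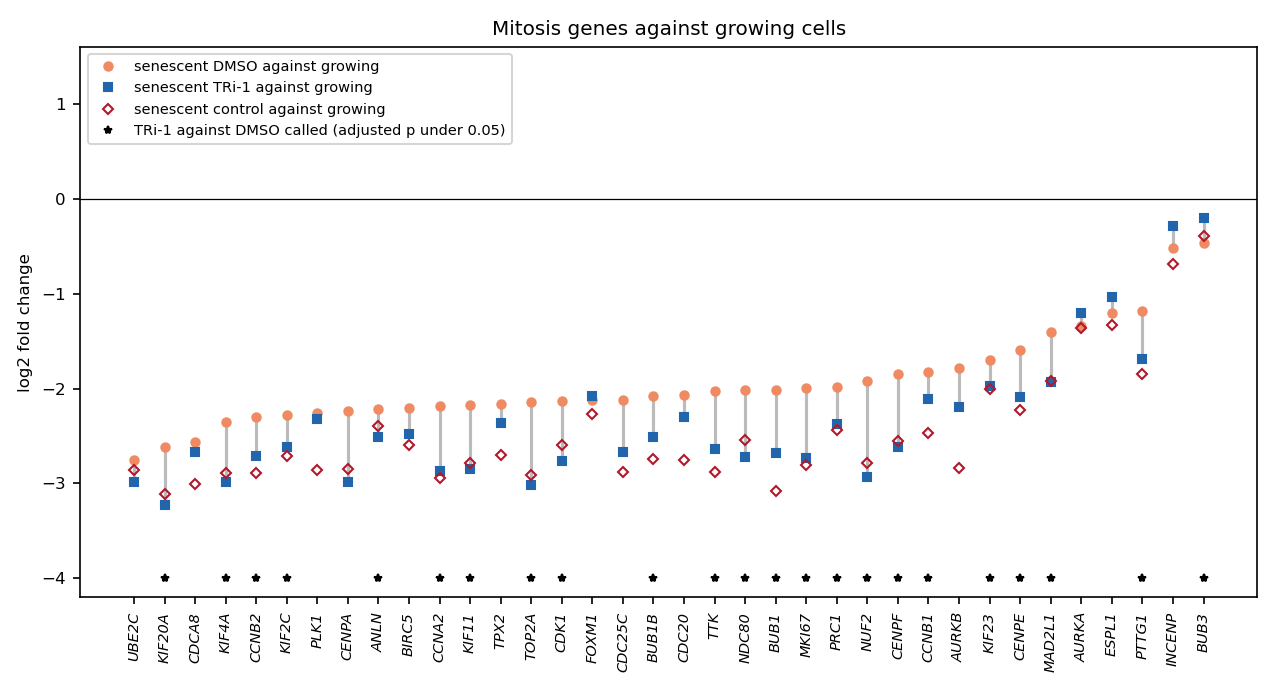
Log2 fold changes against growing cells (vertical axis) of the 36 tested mitosis genes (horizontal axis, ordered by the change under DMSO) in senescent control, DMSO and TRi-1 cells, which share the growing libraries. Stars mark the 23 genes called between TRi-1 and DMSO; all symbols lie below 0, and most TRi-1 squares lie near the diamonds of the senescent control.

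Interleukin-1 and the other inflammatory secretory genes stayed far above the growing level. Of 26 tested members of this list, 25 rose in TRi-1 cells and CSF1, a growth factor of macrophages, fell, the same counts as in DMSO cells, and the median change was 5.91 against 6.65 under DMSO. Directly against DMSO, 12 of the 26 were lower and 1 (CCL2) higher in TRi-1 cells, with a median of -0.38, where 12.2% of all genes were lower. IL1B and IL1A encode the interleukin-1 cytokines that stand upstream of much of the secretory programme. IL1B measured 0.159, 0.164 and 0.09397 CPM in growing libraries and 2317, 2263 and 2354 CPM in TRi-1 libraries, with 2772, 2819 and 2803 CPM under DMSO and 2643, 2670.4 and 2886 CPM in the senescent control. The TRi-1 libraries thus lay far above growing cells and slightly below both references, by -0.28 ± 0.06 against DMSO (adjusted p = 0.00753). IL1A followed with 308, 311 and 307 CPM in TRi-1 libraries, 438, 407 and 402 under DMSO and less than 0.1 CPM in each growing library. IL6, the cytokine of the acute-phase response, measured 8.45, 8.22 and 7.66 CPM in growing, 389, 393 and 399 CPM in TRi-1 and 509, 522 and 515 CPM in DMSO libraries, a rise of 5.60 ± 0.06 with a difference of -0.39 ± 0.05 from DMSO (adjusted p = 7.34e-05).

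Colony-stimulating factor 3 (CSF3) had no count in any growing library and 139.6, 147 and 137 CPM in TRi-1 libraries, at least 3337-fold higher if the 3 growing libraries together held 3 counts. CCL20, a chemokine for T cells and dendritic cells, likewise had no growing count and 50.3, 51.1 and 54.5 CPM, at least 1227-fold higher. Neither was called against DMSO (94.3, 125 and 128 CPM and 65.2, 63.1 and 64.04 CPM), although CCL20 was called lower under 5 of the alternative settings. BMP2, a bone morphogenetic protein, rose from 10.3 ± 0.8204 to 372 ± 4.62 CPM and stood at 368 ± 11.5 under DMSO. The monocyte attractant CCL2 measured 179.96, 175 and 189 CPM in TRi-1 libraries, above DMSO (151, 157 and 157 CPM) and growing cells (53.98, 53.1 and 49.8 CPM) but below the senescent control (353, 361 and 395 CPM). Leaving out DMSO replicate 1 ended the call of CCL2 between TRi-1 and DMSO (log2 change 0.21).

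Neutrophil-attracting CXC chemokines were held at a lower level in TRi-1 cells than in either senescent reference. CXCL6 (ENSG00000124875) measured 1.15, 1.11 and 0.658 CPM in growing libraries, 485, 421 and 425 CPM under DMSO and 345, 337 and 338 CPM in the senescent control, but 35.9, 33.5 and 34.4 CPM in TRi-1 libraries. No TRi-1 library came near either senescent reference, and all stayed above growing cells: the change was 5.12 ± 0.14 against growing (adjusted p = 5.04e-13) and -3.68 ± 0.10 against DMSO (adjusted p = 2.9e-11). CXCL5 measured 1.75, 1.48 and 1.41 CPM in growing, 849.7, 837 and 847 CPM in TRi-1, 2513, 2229.8 and 2246 CPM in DMSO and 1756, 1666 and 1768 CPM in control libraries. CXCL8, the chemokine interleukin-8, stood at 25.7, 20.8 and 18.6 CPM in growing, 3969, 3920.1 and 3999.7 CPM in TRi-1, 8119, 7369 and 7321 CPM in DMSO and 9938, 9587 and 10322 CPM in control libraries. CXCL5 and CXCL8 in TRi-1 cells were thus -1.46 ± 0.07 and -0.94 ± 0.10 from DMSO on the log2 scale (adjusted p = 1.31e-08 and 2.64e-05) while still 9.08 ± 0.11 and 7.51 ± 0.14 above growing cells. CXCL1 differed from DMSO by -0.96 ± 0.07, CXCL2 by -0.42 ± 0.07 and CXCL3 by -0.36 ± 0.09. Against the senescent control these 3 differed by -1.66 ± 0.07, -1.51 ± 0.07 and -1.03 ± 0.09 (adjusted p = 3e-09, 2.88e-09 and 2.78e-06). The differences from DMSO were thus unequal within the family, from -3.68 to -0.36 on the log2 scale. Genes of this family resemble each other in sequence, and the sources used here do not say how reads shared between them were counted.

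**Figure D2:**
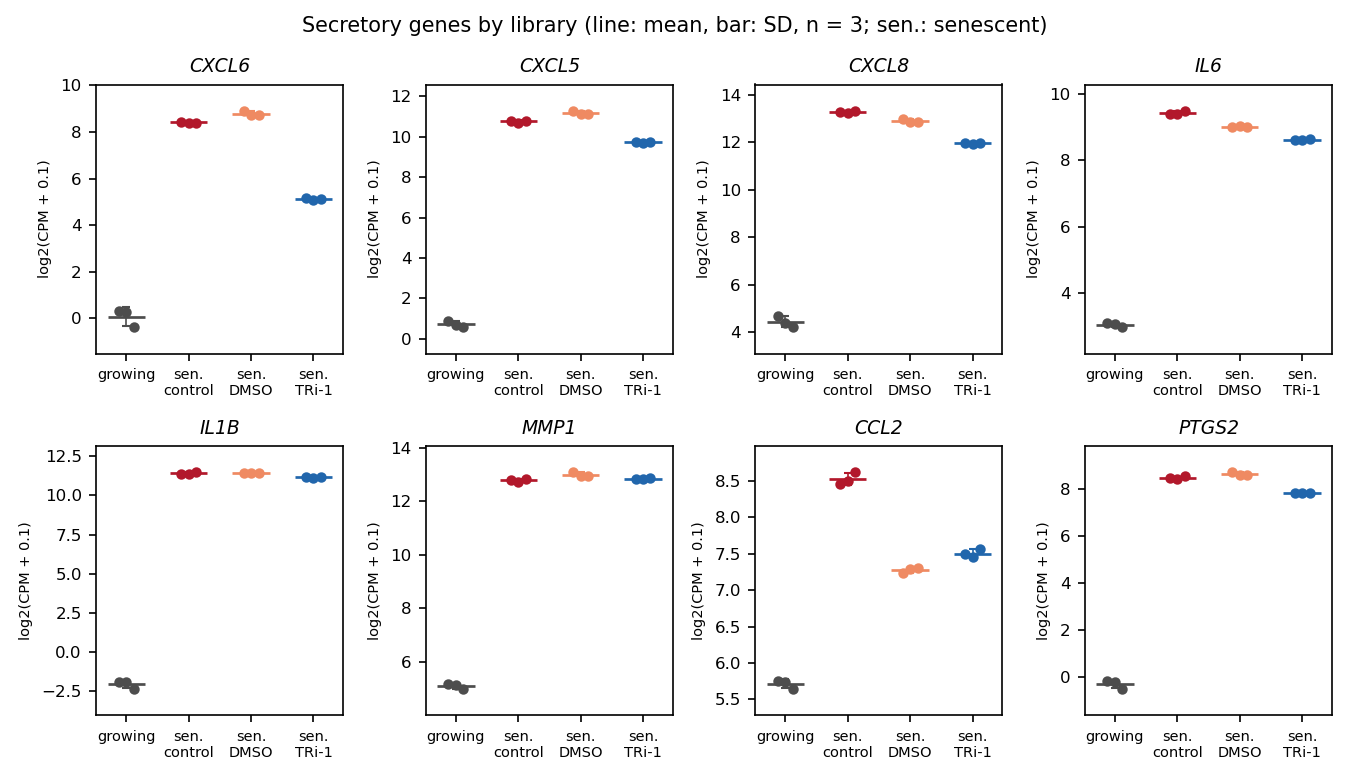
Levels of 8 secretory genes as log2(CPM + 0.1) (vertical axis) in the 3 libraries each of growing, senescent control, senescent DMSO and senescent TRi-1 cells, with group means (lines) and SD (bars); vertical axes differ between panels and do not start at 0. CXCL6 in TRi-1 cells lies between the growing and senescent groups, while IL1B and MMP1 lie close to the senescent groups.

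The start regions of the 3 chemokine genes with the highest or most changed levels are shown because members of one family moved by unequal amounts. Each window runs from 250 bases before to 50 bases after the gene start (RefSeq, GRCh38.p14, written 5′ to 3′ on the strand of the gene). CXCL6 lies at chr4:73836428-73836727 (plus strand), CXCL5 at chr4:73998628-73998927 (minus strand) and CXCL8 at chr4:73740319-73740618 (plus strand), all within the chemokine cluster of chromosome 4. Capitals mark matches, on either strand, to GGAATTTCC, a form of the site that NF-kB binds, or to TGANTCA, a form of the AP-1 site.
CXCL6: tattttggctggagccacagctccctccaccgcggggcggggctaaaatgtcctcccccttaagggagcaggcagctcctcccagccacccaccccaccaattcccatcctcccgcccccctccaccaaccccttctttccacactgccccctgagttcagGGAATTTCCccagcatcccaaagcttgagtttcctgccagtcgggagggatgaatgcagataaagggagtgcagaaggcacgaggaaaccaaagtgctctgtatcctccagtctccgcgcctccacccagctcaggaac
CXCL5: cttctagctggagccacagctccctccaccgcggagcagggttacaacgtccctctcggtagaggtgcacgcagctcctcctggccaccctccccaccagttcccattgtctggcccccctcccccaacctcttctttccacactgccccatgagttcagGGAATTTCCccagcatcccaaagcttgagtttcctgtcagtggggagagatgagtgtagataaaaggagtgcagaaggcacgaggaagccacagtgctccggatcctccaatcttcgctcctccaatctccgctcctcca
CXCL8: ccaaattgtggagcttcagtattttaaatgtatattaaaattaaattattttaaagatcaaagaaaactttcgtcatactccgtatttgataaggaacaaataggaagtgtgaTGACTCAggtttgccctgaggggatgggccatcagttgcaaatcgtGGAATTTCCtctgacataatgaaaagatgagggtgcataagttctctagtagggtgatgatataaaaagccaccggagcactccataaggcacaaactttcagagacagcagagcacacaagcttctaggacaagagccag
The letters GGAATTTCC occur in 0.461% of all 35116 such windows and TGANTCA in 7.71%. These letters were shortened by 1 base after matches in these genes were seen, so the share is no measure of enrichment. Of 22 members of the secretory list with a window, 6 held GGAATTTCC, namely CXCL1, CXCL2, CXCL3, CXCL5, CXCL6 and CXCL8, which lie in the same gene cluster. The match began 89 bases before the gene start in CXCL6, 90 in CXCL5 and 91 in CXCL8, and of the 3 windows only that of CXCL8 also held TGANTCA, at 137 bases before the start. All 6 genes thus held the same letters while differing in how far they stood from DMSO. A match describes letters and is not a measured site.

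The collagenase MMP1 and the stromelysin MMP3 stayed high in TRi-1 cells, while other members of the protease list moved from the DMSO level. MMP1, the interstitial collagenase, measured 35.97, 35.1 and 31.8 CPM in growing and 7234, 7199.96 and 7411 CPM in TRi-1 libraries, and 8711, 7867 and 7762 CPM under DMSO. MMP3, stromelysin 1, measured 51.3, 46.1 and 42.9 CPM in growing, 5144, 5058 and 5205 CPM in TRi-1 and 5692, 5437 and 5352 CPM in DMSO libraries. Each was called against growing cells (7.73 ± 0.12 and 6.78 ± 0.11) and neither against DMSO (-0.16 ± 0.09 and -0.10 ± 0.08, adjusted p = 0.228 and 0.451), although MMP1 was called lower than DMSO under the offset on GC (-0.098, adjusted p = 0.0373). Of the 24 tested proteases and partners, 17 rose against growing cells (median 1.47), TIMP2, IGFBP5, IGFBP7 and ADAMTS1 fell, and 9 were lower than under DMSO (13 under the offset on GC). TIMP2, CTSL and ADAMTS1 were higher than under DMSO, and under that offset 1 member was. SERPINE2, an inhibitor of thrombin and plasminogen activators, was 514 ± 8.403 CPM in TRi-1 cells, between 215 ± 9.25 in growing and 844 ± 18.1 in DMSO cells. Of 28 NF-kB regulators and targets, 21 rose (median 1.42) and VCAM1, CD83 and SDC4 fell. PTGS2, the inducible cyclooxygenase, measured 0.793, 0.781 and 0.611 CPM in growing, 227, 224 and 226 CPM in TRi-1 and 418, 382 and 387 CPM in DMSO libraries, so that the rise was present and smaller. IRAK2, a kinase of interleukin-1 receptor signalling, rose from 11.9 ± 0.646 to 92.6 ± 1.87 CPM and exceeded DMSO (73.4 ± 1.81 CPM). VCAM1, an adhesion molecule for leukocytes, went the other way, with 151, 125 and 124 CPM in growing, 24.6, 26.5 and 26.6 CPM in TRi-1 and 75.7, 65.6 and 68.5 CPM in DMSO libraries.

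Feedback genes of the RAS and MAPK pathway also stayed above growing cells, with 18 of 23 risen (median 1.07) and DUSP1 and FOSL2 fallen. Of all genes, 30.3% rose. Against DMSO, 4 of the 23 were higher and 8 lower (median -0.105), where 7.64% and 12.2% of all genes were. Against the senescent control, 9 were higher and 3 lower (median 0.224), where 5.60% and 9.78% of all genes were. DUSP4 and SPRY2, inhibitors of this pathway, rose by 4.78 ± 0.08 and 2.59 ± 0.06. EGR1, an immediate-early transcription factor, measured 39.4, 41.96 and 42.2 CPM in growing, 77.5, 77.3 and 76.1 CPM in TRi-1 and 106, 117 and 115 CPM in DMSO libraries and was thus above growing and below DMSO. SPRY1, another inhibitor of the pathway, rose under DMSO but measured 6.11, 5.78 and 5.24 CPM in TRi-1 libraries against 7.06, 6.12 and 5.73 CPM in growing and 11.3, 11.8 and 10.9 CPM in DMSO libraries. HRAS measured 7.496, 15.8 and 19.8 CPM in growing and 123, 132 and 116 CPM in TRi-1 libraries, so that growing replicate 1 lay well below the other growing libraries. It was called against growing cells (3.11 ± 0.38, adjusted p = 1.59e-05) and not against DMSO (0.47 ± 0.35, adjusted p = 0.388), but was called higher than DMSO under the offset on GC (0.21, adjusted p = 0.00454).

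Extracellular matrix genes separated TRi-1 cells from both senescent references, and single members also separated them from growing cells. In the list of 34 collagens and matrix genes, 19 rose and 5 fell in DMSO cells (median 0.57), but 11 rose and 13 fell in TRi-1 cells (median -0.14; 20 fell under the offset on GC). The counts in TRi-1 cells lie near the shares of all genes tested, of which 30.3% rose and 32.3% fell. Directly against DMSO, 23 of the 34 were lower (median -0.54), where 12.2% of all genes were. None was higher by edgeR or DESeq2, with 0 at an unadjusted p under 0.05. Against the senescent control, 17 were lower and 2 higher (median -0.51), where 9.78% and 5.60% of all genes were. The offset on GC gave 31 lower than DMSO, and leaving out replicates 1 of the growing and DMSO groups gave 23. COL3A1 (ENSG00000168542), a fibrillar collagen, measured 1504, 1739 and 1863 CPM in growing libraries, 1594, 1765 and 1746 CPM under DMSO and 2079.8, 2185 and 1949 CPM in the senescent control, but 664, 672 and 647 CPM in TRi-1 libraries. The TRi-1 libraries lay below all 9 others, and COL3A1 was -1.36 ± 0.09 from growing cells (adjusted p = 6.69e-09) where DMSO cells were 0.00 ± 0.09 (adjusted p = 1). COL1A2, a chain of type I collagen, fell from 6376 ± 800.3 CPM in growing to 3533 ± 98.8 CPM in TRi-1 cells. It stood at 6589 ± 561 CPM under DMSO and 6629 ± 439 CPM in the senescent control. COL1A1, the partner chain, ranged from 2685 to 6197 CPM among growing libraries and was not called (-0.69 ± 0.34, adjusted p = 0.0966, edgeR). FBN2, fibrillin 2 of the elastic microfibrils, measured 354, 329.6 and 326 CPM in growing, 338, 341 and 332 CPM in DMSO and 161, 159 and 164 CPM in TRi-1 libraries. Its level in the senescent control was 362 ± 8.81 CPM.

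Matrix genes that are high in senescent references took different positions. POSTN, periostin, measured 13.2, 12.1 and 11.5 CPM in growing, 32.5, 29.9 and 29.2 CPM in TRi-1, 118, 108 and 105 CPM in DMSO and 59.1, 60.3 and 61.9 CPM in control libraries. COL8A1, a network-forming collagen, measured 167, 167 and 169 CPM in growing, 443, 442 and 446 CPM in TRi-1, 929.6, 964 and 952 CPM in DMSO and 855, 857 and 846 CPM in control libraries. Both remained above growing cells and below each senescent reference, without overlap. COL12A1, a collagen on the surface of fibrils, was called higher than growing under DMSO (5972, 5717 and 5725 CPM) and lower in TRi-1 cells (2409.7, 2357 and 2416 CPM against 3612, 3265 and 3225 in growing), and so had no senescent rise left. In the senescent control COL12A1 was 4256 ± 130 CPM. TNC, tenascin C, kept most of its rise, with 1743 ± 15.4 CPM against 363 ± 24.8 in growing and 2089.5 ± 96.8 in DMSO cells. Decorin (DCN) and lumican (LUM), small proteoglycans of collagen fibrils, fell in TRi-1 cells: DCN measured 783, 706 and 642 CPM in growing, 283, 284 and 279 CPM in DMSO and 144, 146 and 151 CPM in TRi-1 libraries, and LUM 329, 286 and 263 CPM in growing, 139, 126 and 130.1 CPM in DMSO and 53.7, 53.3 and 55.4 CPM in TRi-1 libraries. In the senescent control, DCN and LUM were 557 ± 23.8 and 259 ± 7.01 CPM, so that the TRi-1 cells were the lowest of the 4 groups for both. COL14A1, a fibril-associated collagen, fell by 3.93 from 279 ± 15.9 to 18.2 ± 1.34 CPM, and CEMIP, a hyaluronan-degrading protein, by 3.34 from 335 ± 13.7 to 33.1 ± 0.589 CPM. Both had changed less under DMSO (98.4 ± 4.44 and 162 ± 3.36 CPM) and in the senescent control (139 ± 1.16 and 128 ± 2.31 CPM).

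**Figure D3:**
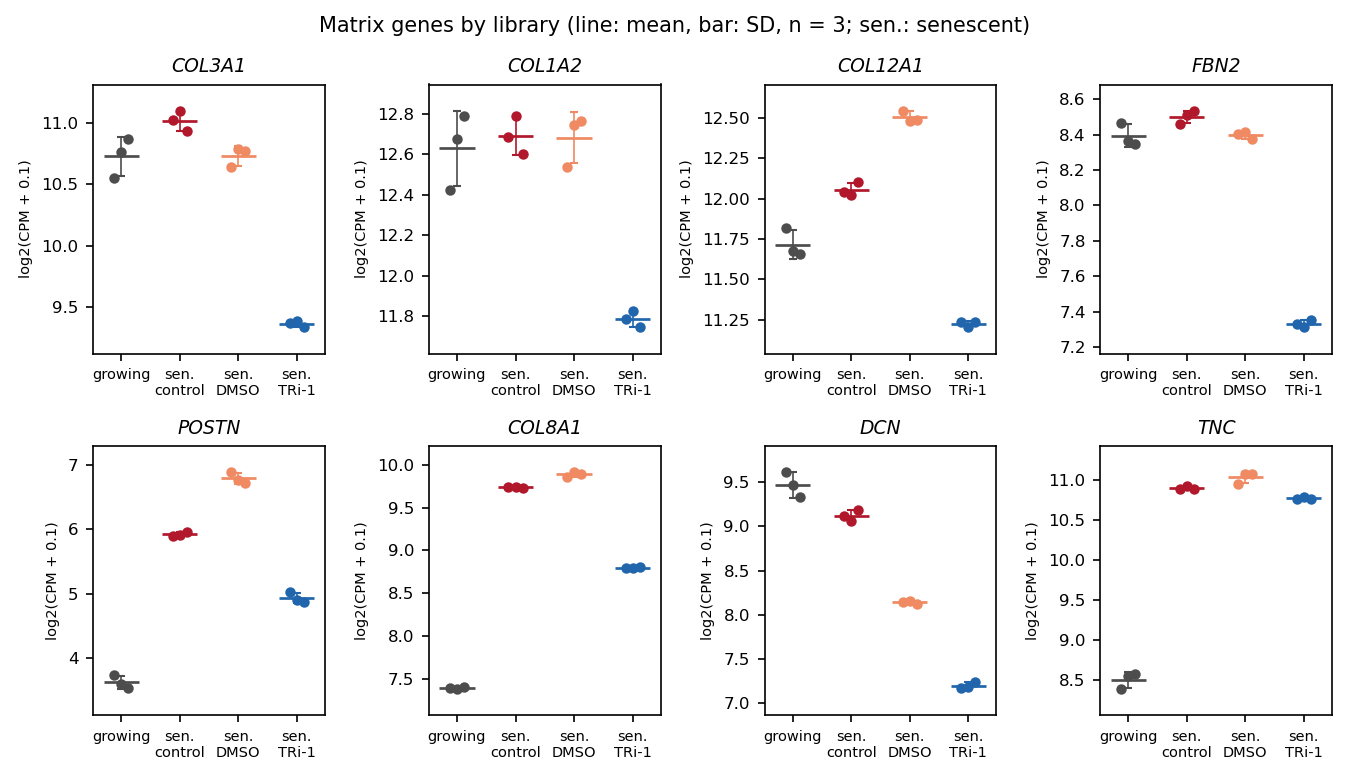
Levels of 8 matrix genes as log2(CPM + 0.1) (vertical axis) in the 3 libraries of each of 4 groups, with group means (lines) and SD (bars); vertical axes differ between panels and do not start at 0. TRi-1 libraries are the lowest of the 4 groups for COL3A1, COL1A2, COL12A1, FBN2 and DCN, and lie between growing and senescent groups for POSTN and COL8A1.

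The TGF-beta receptor gene TGFBR1 (ENSG00000106799) was low in TRi-1 cells only, among the 4 groups: 87.9, 82.9 and 88.1 CPM against 196, 163 and 155 in growing, 209, 191 and 186 in DMSO and 184, 177 and 193 in control libraries. Its change was -0.99 ± 0.10 against growing (adjusted p = 6.26e-07) and -1.18 ± 0.10 against DMSO (adjusted p = 1.49e-06). In the list of contractile and TGF-beta genes, 15 of 23 fell in TRi-1 cells, while TGFB1, TGFBR2 and SMAD7 rose, and 11 were lower than under DMSO. In DMSO cells 15 fell and 4 rose. CCN2, a TGF-beta target also called CTGF, fell from 1543 ± 20.6 to 825 ± 4.49 CPM, with 1069 ± 13.9 under DMSO. MYLK, myosin light chain kinase, fell from 2458 ± 19.9 to 996 ± 11.6 CPM. In the list of BMP and ID genes, 10 of 18 fell, BMP2, SMAD1 and GREM1 rose (5 rose under the offset on GC), and ID2, an inhibitor of DNA binding, fell from 86.7 ± 1.99 to 2.22 ± 0.299 CPM, close to DMSO (2.87 ± 0.443 CPM).

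The lost genes furthest from DMSO included a guidance receptor, a ligand and a muscle myosin, none of them called against growing cells. ROBO2 (ENSG00000185008), a receptor for SLIT guidance proteins, measured 25.4, 21.5 and 19.9 CPM in growing, 22.8, 21.9 and 22.3 CPM in TRi-1, 121, 113 and 111 CPM in DMSO and 72.8, 74.5 and 81.1 CPM in control libraries. Growing and TRi-1 libraries overlapped, and both senescent references lay above them. Under the offset on GC, ROBO2 was called slightly above growing cells (0.30, adjusted p = 2.41e-05). BMP5, a bone morphogenetic protein, measured 2.06, 1.97 and 1.97 CPM in growing, 1.53, 1.62 and 1.48 CPM in TRi-1, 11.04, 9.28 and 9.63 CPM in DMSO and 10.3, 9.34 and 10.95 CPM in control libraries. MYH11, smooth muscle myosin heavy chain, measured 1.11, 1.27 and 1.17 CPM in growing, 1.88, 1.43 and 1.35 CPM in TRi-1, 7.98, 8.697 and 8.73 CPM in DMSO and 5.96, 6.33 and 5.45 CPM in control libraries. In TRi-1 libraries BMP5 lay below and MYH11 above every growing library, by small margins. Both were lost, with changes of -0.38 ± 0.13 and 0.38 ± 0.16 against growing cells (adjusted p = 0.0648 and 0.111) and -2.69 ± 0.12 and -2.45 ± 0.14 against DMSO (adjusted p = 4.94e-09 and 3.64e-08). HAPLN1, a link protein of hyaluronan and proteoglycans, and HBG1, a fetal globin, also belonged here, with mean levels of 0.2702 ± 0.161 and 0.237 ± 0.162 CPM in TRi-1 cells against 2.52 ± 0.302 and 3.38 ± 0.796 under DMSO. In the senescent control they were 4.22 ± 0.592 and 5.41 ± 0.234 CPM. HBG1 and its near-identical neighbour HBG2 may share reads, and HBG1 became called against growing cells once growing replicate 1 was left out (2.34).

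EDNRB (ENSG00000136160), the endothelin receptor B, and RGS5, a regulator of G-protein signalling found in pericytes, stayed above the growing level and far below both senescent references. EDNRB measured 5.91, 5.14 and 5.22 CPM in growing, 12.98, 13.7 and 13.9 CPM in TRi-1, 93.1, 83.1 and 85.6 CPM in DMSO and 104, 98.2 and 104 CPM in control libraries. RGS5 measured 10.7, 9.74 and 9.91 CPM in growing, 15.7, 14.97 and 16.4 CPM in TRi-1, 91.3, 88.3 and 87.5 CPM in DMSO and 58.96, 59.03 and 65.9 CPM in control libraries. Both were called higher than growing (1.32 ± 0.09 and 0.63 ± 0.09) and lower than DMSO (-2.69 ± 0.09 and -2.51 ± 0.09). CFB, complement factor B, measured 1.86, 1.77 and 3.05 CPM in growing, 3.21, 3.004 and 3.68 CPM in TRi-1, 32.3, 26.2 and 29.9 CPM in DMSO and 20.6, 16.4 and 18.2 CPM in control libraries, and its call against growing cells ended when growing replicate 1 or 2 or TRi-1 replicate 3 was left out (0.46, 0.43 and 0.49), and under the offset on GC (0.44, adjusted p = 0.0861). A further 3 lost genes, chosen after their values were seen because they had the same class with both references, were MXRA5 (29.3 ± 2.24 CPM in growing and 27.9 ± 1.05 in TRi-1, against 99.4 ± 1.69 in DMSO and 126 ± 2.395 in control cells), SEMA4D (5.03 ± 1.02 and 4.35 ± 0.569, against 13.7 ± 1.51 and 13.1 ± 0.436) and RFTN2 (5.72 ± 0.792 and 6.25 ± 0.141, against 17.7 ± 1.04 and 14.04 ± 1.33). Of genes lower in DMSO cells and lost in TRi-1 cells, EGF and FITM2 depended on the reference. EGF, the epidermal growth factor, measured 4.297 ± 0.948 CPM in growing, 3.86 ± 0.479 in TRi-1 and 1.66 ± 0.114 in DMSO cells, but 3.8997 ± 0.781 in the senescent control, and FITM2, a protein of lipid droplet formation, 25.5 ± 1.01 CPM in growing, 28.3 ± 1.58 in TRi-1, 14.5 ± 0.148 in DMSO and 29.2 ± 1.71 in control cells. FITM2 was called above growing cells under 5 alternatives, among them the offset on GC (0.18, adjusted p = 0.00399) and leaving out growing replicate 1 (0.18) or TRi-1 replicate 3 (0.20).

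Reversed genes rose in DMSO cells and lay below growing cells in TRi-1 cells in 70 of 98 cases. IGFBP5, a secreted binding protein of insulin-like growth factors, measured 5380.2, 5922 and 6189.9 CPM in growing, 4764, 4749.6 and 4679 CPM in TRi-1, 9224, 10200.2 and 10300.4 CPM in DMSO and 8809, 9197 and 8767 CPM in control libraries. TRi-1 libraries lay below all growing libraries by a small margin (-0.30 ± 0.07, adjusted p = 0.00179) and below both references by a larger one. SLITRK6, a neuronal transmembrane protein, measured 5.36 ± 0.2805 CPM in growing, 3.29 ± 0.1803 in TRi-1, 11.9 ± 1.47 in DMSO and 12.4 ± 0.164 in control cells, and WNT2, a WNT ligand, 1.52 ± 0.189 CPM in growing, 0.935 ± 0.205 in TRi-1, 3.97 ± 0.359 in DMSO and 3.86 ± 0.698 in control cells. The call of WNT2 against growing cells ended without growing replicate 3 (-0.60) and without TRi-1 replicate 2 or 3 (-0.63 and -0.60), and under the offset on GC (-0.59, adjusted p = 0.0548). ITGA1, an integrin subunit that binds collagen, and PTGS1, the constitutive cyclooxygenase, were reversed with both references and were named after their values were seen. ITGA1 measured 626 ± 61.5 CPM in growing, 418 ± 4.56 in TRi-1, 1055 ± 60.5 in DMSO and 878 ± 39.4 in control cells and PTGS1 102 ± 1.41 CPM in growing, 68.9 ± 1.22 in TRi-1, 207 ± 0.906 in DMSO and 156 ± 2.62 in control cells. PDGFRA, a growth factor receptor of fibroblasts, was called -0.20 ± 0.08 from growing cells after a rise of 0.69 ± 0.08 under DMSO. In the opposite direction, GPNMB, a glycoprotein of lysosome-rich cells, was lower than growing under DMSO (59.4 ± 5.07 against 81.01 ± 2.91 CPM) and higher in TRi-1 cells (103 ± 3.53 CPM), with 70.1 ± 3.46 CPM in the senescent control.

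Among new genes, those that were low in TRi-1 cells included a vascular growth factor, a lipid receptor and a chaperone. ANGPT1, angiopoietin 1, named after its values were seen, measured 82.1, 84.8 and 78.6 CPM in TRi-1 libraries, against 256, 212 and 205 in growing, 212, 182 and 188 in DMSO and 219, 212 and 223 in control libraries. Its change against growing was -1.45 ± 0.10 (adjusted p = 1.43e-08). LPAR6, a receptor of lysophosphatidic acid, measured 3.6000 ± 0.754 CPM in growing and 1.27 ± 0.233 in TRi-1 cells, with 3.61 ± 0.476 and 3.25 ± 0.345 in DMSO and control cells. CPZ, a carboxypeptidase of the matrix, fell from 3.87 ± 0.937 to 1.25 ± 0.0702 CPM, with 3.25 ± 0.386 in DMSO and 2.94 ± 0.310 in control cells. HSPA2, a member of the HSP70 family, fell from 21.1 ± 4.02 to 6.92 ± 0.602 CPM, where DMSO cells had 22.6 ± 2.28 and control cells 14.7 ± 2.09 CPM. The new high genes furthest from DMSO stood near the senescent control. GATD1 measured 23.7 ± 5.33 CPM in growing, 49.1 ± 3.005 in TRi-1 and 18.8 ± 1.75 in DMSO cells, but 38.7 ± 3.78 in control cells, and NR3C2, the mineralocorticoid receptor, 1.63 ± 0.181 CPM in growing, 3.69 ± 0.122 in TRi-1, 1.44 ± 0.124 in DMSO and 4.55 ± 0.555 in control cells. None of the 54 new high genes found with both references was 2-fold above DMSO, and 16 of the 106 new low genes were 2-fold below it. Over all genes called against DMSO, 65 of 1222 higher and 318 of 1954 lower ones moved at least 2-fold, so 2-fold falls were also more common there.

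**Figure D4:**
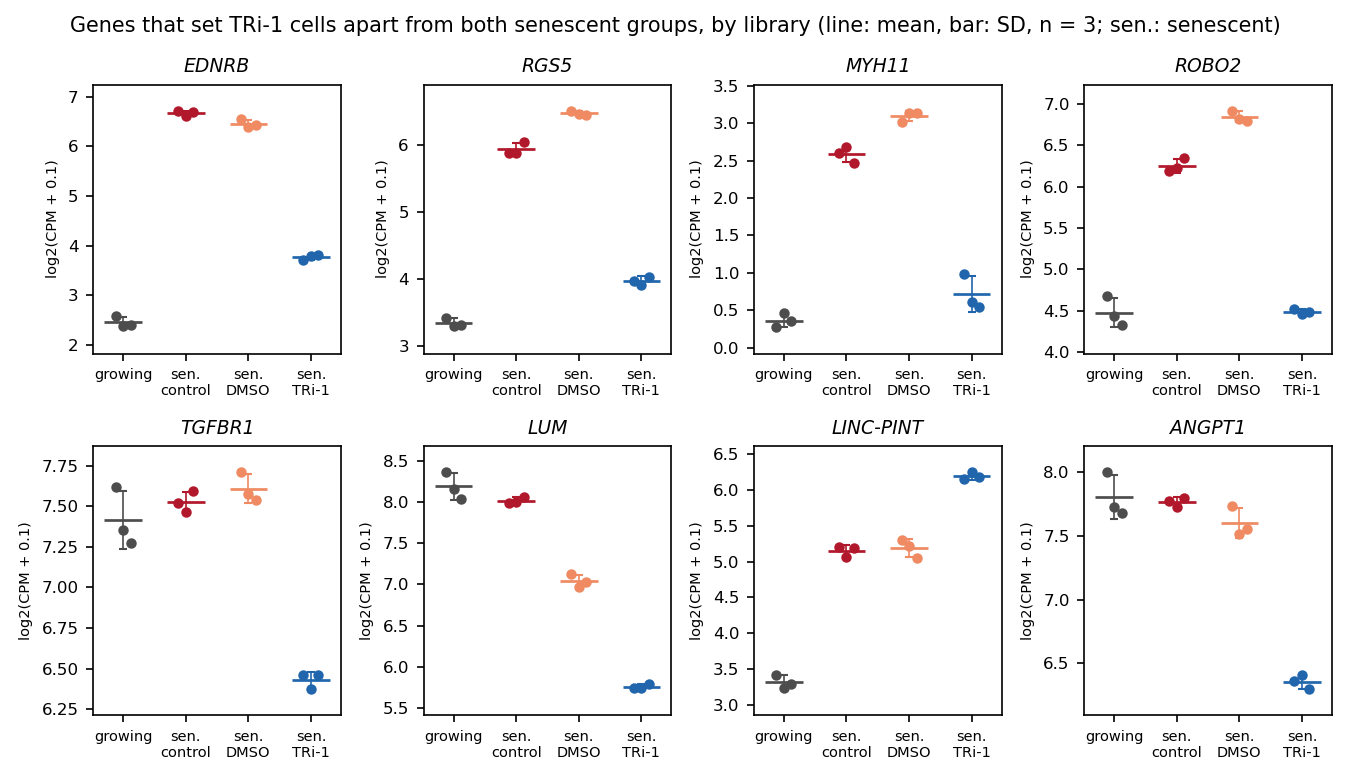
Levels of 8 genes as log2(CPM + 0.1) (vertical axis) in the 3 libraries of each of 4 groups, with group means (lines) and SD (bars); vertical axes differ between panels and do not start at 0. EDNRB, RGS5, MYH11 and ROBO2 in TRi-1 cells lie below both senescent references, with EDNRB and RGS5 above growing cells, TGFBR1, LUM and ANGPT1 lie below the other 3 groups, and LINC-PINT lies above them.

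Some rises were larger in TRi-1 cells than in either reference. LINC-PINT, a long non-coding RNA induced by p53, measured 10.6, 9.29 and 9.68 CPM in growing, 70.97, 76.1 and 72.6 CPM in TRi-1, 39.2, 36.95 and 33.03 CPM in DMSO and 36.7, 33.3 and 36.5 CPM in control libraries, a change of 2.89 ± 0.09 against growing and 1.01 ± 0.08 against DMSO (adjusted p = 1.03e-06). LINC01705 rose from 0.103 ± 0.0763 to 7.72 ± 0.525 CPM, with 2.93 ± 0.703 under DMSO and 3.96 ± 0.258 in control cells. EEF1A2, a translation elongation factor, stood at 3.705 ± 0.464 CPM in TRi-1 cells against 1.66 ± 0.455 under DMSO, but this difference lost its call without DMSO replicate 1 or 2 or any TRi-1 library (0.94 to 1.24). GPRC5A, an orphan receptor induced by retinoic acid, illustrates a partial return from below, with 149, 147 and 141 CPM in growing, 27.1, 23.7 and 26.7 CPM in TRi-1, 6.997, 7.801 and 8.58 CPM in DMSO and 18.9, 20.6 and 19.2 CPM in control libraries.

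Interferon-stimulated genes were lower in TRi-1 cells than in growing cells. Of 35 tested, 27 fell (median -1.03) and ISG20, OASL, HERC5, CXCL10 and CXCL11 rose, against 20 fallen and 7 risen in DMSO cells (median -0.62). Directly against DMSO, 16 were lower (median -0.40) and none was higher by edgeR or DESeq2, with 0 at an unadjusted p under 0.05. Against the senescent control 20 were lower (median -0.63). Of all genes tested, 32.3% fell and 30.3% rose against growing cells. Against DMSO 12.2% of all genes were lower and 7.64% higher, and against the senescent control 9.78% were lower. IFIT1, an antiviral RNA-binding protein, fell from 15.01 ± 2.32 to 1.94 ± 0.219 CPM and was not called against DMSO (2.52 ± 0.107 CPM). DDX60, an antiviral helicase, measured 24.4, 19.1 and 20.2 CPM in growing, 7.79, 8.55 and 8.41 CPM in TRi-1 and 16.8, 13.8 and 15.2 CPM in DMSO libraries. PARP14, an ADP-ribosyltransferase, measured 85.9, 73.7 and 77.8 CPM in growing, 48.5, 45.7 and 51.5 CPM in TRi-1 and 79.4, 75.7 and 75.2 CPM in DMSO libraries and was low only in TRi-1 cells among these 3 groups. CXCL10, a chemokine for T cells, was among the exceptions and rose from 2.75 ± 0.245 to 45.1 ± 1.69 CPM, below DMSO (57.3 ± 3.66) and the senescent control (81.8 ± 2.403). Of 14 genes for sensing of nucleic acids, 5 fell and STING1, IRF3, MAVS and NLRP3 rose. Both counts lie near the shares of all genes tested, of which 32.3% fell and 30.3% rose. STING1, which relays the signal of cytosolic DNA, went from 19.4, 23.1 and 23.8 CPM in growing to 67.6, 71.9 and 66.6 CPM in TRi-1 libraries, with 80.6, 86.8 and 91.8 CPM under DMSO. Its difference from DMSO (-0.33 ± 0.10, adjusted p = 0.0332) lost its call without DMSO replicate 2 or 3 or any TRi-1 library (-0.36 to -0.28). CGAS, the DNA sensor itself, was 4.31 ± 0.1801 CPM in TRi-1 cells, below 7.503 ± 0.578 in growing cells and not called against DMSO (3.86 ± 0.4998).

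Targets of NRF2, the transcription factor of the antioxidant response, stayed low in TRi-1 cells. Of 32 tested, 25 fell (median -1.03) and GCLC and ABCC3 rose, and in DMSO cells 26 fell (median -0.93). NQO1, a quinone reductase, measured 879, 794 and 749 CPM in growing, 85.6, 82.8 and 85.4 CPM in TRi-1 and 80.6, 72.8 and 72.4 CPM in DMSO libraries. SLC7A11, the cystine carrier that feeds glutathione synthesis, fell from 623 ± 75.99 to 30.2 ± 0.951 CPM, with 28.5 ± 2.201 under DMSO. NQO1 and SLC7A11 had no call against DMSO but were called higher under the offset on GC (0.18 and 0.26, adjusted p = 0.00836 and 0.000159). HMOX1, haem oxygenase 1, fell from 21.1 ± 4.06 to 9.33 ± 0.567 CPM. It stood above DMSO (6.66 ± 0.269 CPM, adjusted p = 0.0492), a call lost when any DMSO or TRi-1 library was left out (0.44 to 0.53). AKR1C1, an aldo-keto reductase with close paralogs, measured 35.1 ± 0.837 CPM in growing, 9.27 ± 0.6503 in TRi-1, 26.6 ± 0.768 in DMSO and 40.3 ± 0.389 in control cells, and was lowest in TRi-1 cells. SRXN1, sulfiredoxin, which repairs peroxiredoxins, moved partly back, with 123, 124 and 119 CPM in growing, 92.4, 92.9 and 95.2 CPM in TRi-1 and 70.3, 70.6 and 68.8 CPM in DMSO libraries. In the wider list of thioredoxin and peroxide systems, 8 of 33 rose and 17 fell (median -0.30), against 5 and 20 in DMSO cells (median -0.49). Of all genes tested, 30.3% rose and 32.3% fell in TRi-1 cells, and 27.5% and 30.8% in DMSO cells. The rises in TRi-1 cells thus did not exceed the share of all genes. Of the same 33, 6 were higher than under DMSO, and 15 under the offset on GC. Over all 15994 genes these counts were 1222 and 2578. SOD2, the mitochondrial superoxide dismutase, rose from 379 ± 37.4 to 1764 ± 12.2 CPM, with 1742 ± 109 under DMSO, and was called higher than DMSO only under the offset on GC among the alternatives run (0.11, adjusted p = 0.00189). TXN, thioredoxin itself and the substrate of TXNRD1, measured 386, 355 and 319 CPM in growing, 234, 241 and 242 CPM in TRi-1 and 181, 172 and 167 CPM in DMSO libraries, and so stood between them.

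Of 21 heat shock genes and chaperones, 9 fell against growing cells (median -0.17; 5 without growing replicate 1), DNAJB1 and HSF1 rose (6 rose under the offset on GC), and 14 fell in DMSO cells. Of all genes, 32.3% fell and 30.3% rose in TRi-1 cells, and 30.8% fell in DMSO cells. Against DMSO, 7 of the 21 were higher, where 7.64% of all genes were, and 15 under the offset on GC. DNAJB1, a co-chaperone of HSP70, measured 96.7, 99.9 and 104 CPM in growing, 112, 110.5 and 113 CPM in TRi-1 and 85.8, 89.6 and 90.1 CPM in DMSO libraries. Its call against growing cells ended without growing replicate 1 (0.13), with no filter on low counts (0.13) and under the offset on GC (0.016, adjusted p = 0.748). HSPB8, a small heat shock protein, was 12.6 ± 1.27 CPM, between 8.71 ± 0.241 under DMSO and 27.1 ± 1.93 in growing cells. All 3 tested metallothioneins, which bind zinc and copper, rose (median 3.501), and MT1E measured 8.21, 11.3 and 12.1 CPM in growing, 66.8, 75.2 and 64.2 CPM in TRi-1 and 27.5, 40.96 and 44.3 CPM in DMSO libraries. Metallothionein genes are near copies of each other, so the split of reads between them is uncertain. Of 28 genes of the ATF4 and endoplasmic reticulum stress list, 6 rose and 13 fell, where 30.3% of all genes rose and 32.3% fell. ASNS, asparagine synthetase, fell from 76.1 ± 4.21 to 8.0998 ± 0.0309 CPM and lay below DMSO (11.7 ± 0.677 CPM). For the 21 genes of cholesterol synthesis, 4 rose and 8 fell against growing cells, with the falls near the share of all genes. Against DMSO, 4 were higher, where 7.64% of all genes were (8 rose and 8 were higher under the offset on GC). Against the senescent control, however, 15 were lower, where 9.78% of all genes were.

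Glycolysis genes rose in TRi-1 cells, 19 of 24 with a median of 0.77, against 16 in DMSO cells (median 0.64), and LDHB fell in both. HK2, a hexokinase, rose from 76.6 ± 3.47 to 367 ± 5.02 CPM and ENO2, an enolase, from 19.8 ± 2.51 to 151 ± 1.93 CPM, with 312 ± 8.499 and 125 ± 4.28 under DMSO. The call of ENO2 against DMSO ended without DMSO replicate 1 (0.25) or TRi-1 replicate 3 (0.26) and under the offset on GC (0.17). Lysosomal genes rose in 20 of 29 cases (median 0.51), LAMP2, GUSB and LIPA fell, and 9 were higher than under DMSO. That last count was 5 without DMSO replicate 1 or TRi-1 replicate 1 or 3. CTSB, cathepsin B, rose from 1126 ± 93.3 to 4093 ± 56.96 CPM, with 4076 ± 119 under DMSO. CTSK, cathepsin K, a collagen-degrading protease, measured 22.4, 22.4 and 18.6 CPM in growing, 133, 135 and 137 CPM in TRi-1 and 288, 263 and 263 CPM in DMSO libraries and so rose less than under DMSO. Of 38 cytosolic ribosomal proteins, 19 fell, where 32.3% of all genes did, and the median difference from DMSO was 0.12. Among 34 subunits of the respiratory chain, 8 rose and 14 fell, where 30.3% of all genes rose and 32.3% fell. This split changed to 10 and 9 under the offset on GC. Without growing replicate 2 or TRi-1 replicate 1 or 2, 9 fell. Of 9 tested replication histone genes, which are near copies of each other, 7 rose.

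Of the largest falls against growing cells, GRIA4, a glutamate receptor subunit, went from 14.04, 12.2 and 10.8 CPM in growing to 0.102, 0.231 and 0.169 CPM in TRi-1 libraries, with 0.622, 0.633 and 0.724 CPM under DMSO. KCND3, a potassium channel, fell from 15.8 ± 0.218 to 0.262 ± 0.0134 CPM and TOX, a chromatin protein best known in T cells, from 10.2 ± 0.757 to 0.244 ± 0.0473 CPM. B3GALT2, a galactosyltransferase, fell to 0.708 ± 0.0677 CPM from 24.98 ± 3.62, further than under DMSO (3.86 ± 0.4601 CPM) or in the senescent control (3.602 ± 0.232 CPM). CST1, a secreted cystatin with close paralogs, had no growing count and rose to 66.5 ± 2.43 CPM, at least 1570.3-fold higher, where DMSO cells had 148 ± 14.8 CPM. LCE1F, a protein of the cornified envelope of skin, likewise rose from no count to 28.3 ± 2.48 CPM, at least 669-fold higher.

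Fibroblast markers were abundant in both groups but lower in TRi-1 cells. Of 10 tested, 8 fell (median -0.92), and their summed level was 11578 to 12326 CPM in TRi-1 and 16506 to 21755 CPM in growing libraries. Leukocyte markers summed to 91.4 to 93.1 CPM in TRi-1 and 15.5 to 25.9 CPM in growing libraries, nearly all of it CD68, a lysosomal protein also present in fibroblasts (91.5 ± 1.13 and 20.9 ± 5.12 CPM). The defining leukocyte genes PTPRC, CD3E and ITGAM did not pass the filter on low counts, nor did the endothelial genes CDH5 and ERG or the epithelial genes CDH1 and ESRP1. Endothelial markers summed to 51.5 to 54.98 CPM in TRi-1 and 109 to 134 CPM in growing libraries, mostly TEK (50.7 ± 1.85 and 119.9 ± 12.8 CPM). The fall of this sum was that of TEK, since 3 of the 4 tested endothelial markers were called higher in TRi-1 cells (median 2.00). Epithelial markers summed to 56.7 to 57.4 CPM in TRi-1 and 59.9 to 82.6 CPM in growing libraries, and of 5 tested, 1 rose and 2 fell. The part of these markers in the other results was not tested.

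**Figure D5:**
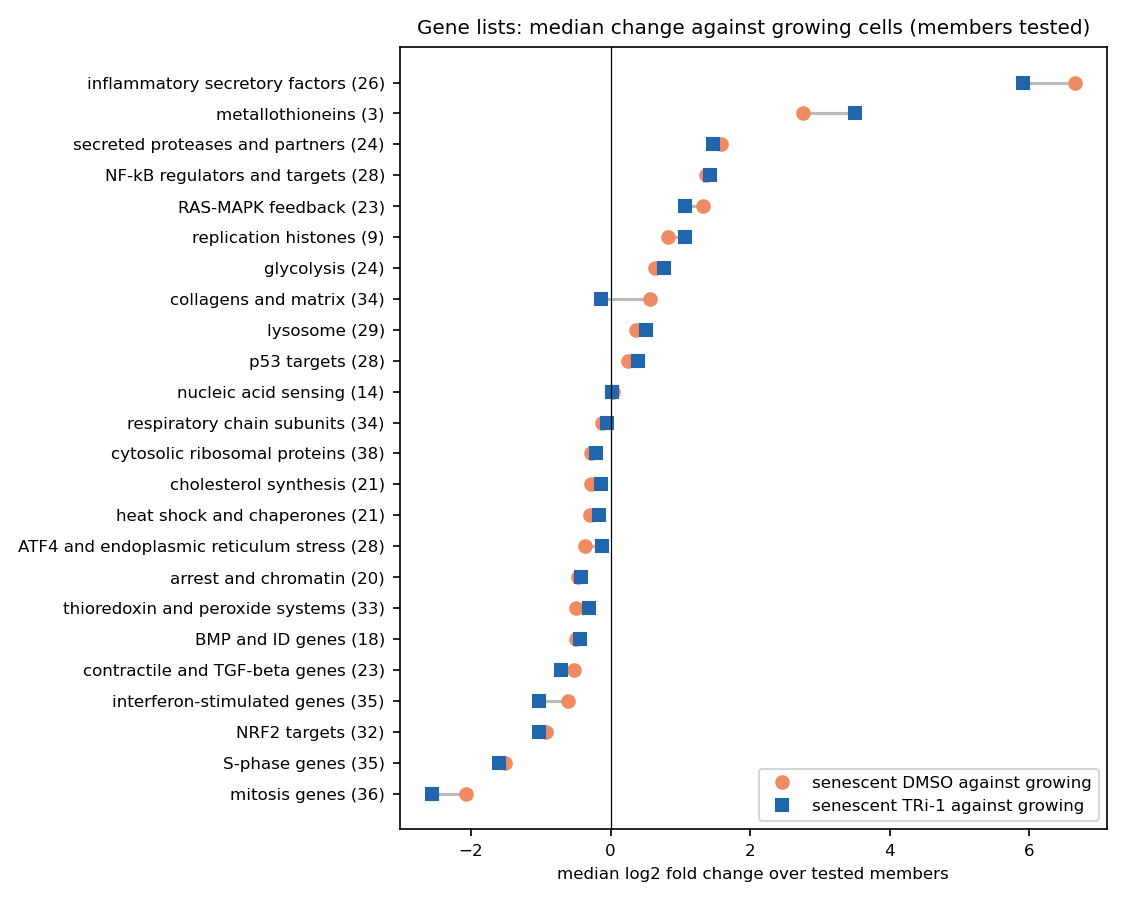
Median log2 fold change against growing cells (horizontal axis) of 24 gene lists (vertical axis, with the number of members tested) in DMSO and TRi-1 senescent cells, which share the growing libraries. The longest connecting lines belong to the metallothioneins (2.762 and 3.501 for DMSO and TRi-1), inflammatory secretory factors (6.65 and 5.91) and collagens and matrix (0.57 and -0.14).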

How the data were processed

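RNA of IMR90 fibroblasts was sequenced in paired-end runs after KAPA RNA HyperPrep library preparation, per the labels. The authors deposited a table of unscaled counts, which are whole numbers with Ensembl identifiers. RSEM 1.2.3, DESeq2 (no version) and the builds hg19 and mm10 are listed in the submitters' processing notes, with no role for each. The sources used here do not give aligner, annotation, strand or the treatment of shared reads. Genes without a symbol held 0.68% of counts.

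After TMM scaling, the deposited counts were fitted with edgeR 4.0.16 in R 4.3.3 (quasi-likelihood F test, robust, filterByExpr by group), with 1 coefficient per group over 15 libraries and 10 residual degrees of freedom. Tests were two-sided, with Benjamini-Hochberg adjustment over all genes of a comparison, and called at an adjusted p under 0.05. The fit was tested on simulated data. The smallest p an exact permutation of 3 against 3 libraries allows is 0.1, so a spread estimated jointly over genes was used. Levels are CPM (mean ± SD, n = 3). A floor of 3 counts over a group covers counting error only.

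Comparisons were TRi-1, DMSO and senescent control against growing, which share the growing libraries, and TRi-1 against DMSO and senescent control. The members, gene lists and named genes were chosen with earlier results of these data known. Named genes were a panel of 19, the 6 largest changes each way, up to 5 per class and direction, and the 2 smallest p-values per list against growing cells and against DMSO. The largest changes and class genes also needed groups without overlap and an average log2 CPM not under 1, and not all are printed. Genes named only to spell out a small count, and those said to be, were chosen after their values were seen. Alternatives were DESeq2 1.42.0, other scalings and filters, the compared groups alone, a replicate block, a 1.5-fold minimum, each library left out, and the senescent control as reference. An offset on GC and the joint removal of growing and DMSO replicates 1 were chosen after seeing the data. Promoter windows came from a RefSeq table (GRCh38.p14), not used for counting. The NF-kB letters were shortened by 1 base (a leading G) after matches were seen, and CXCL8 held only the shorter form. Some measured genes are not reported here.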

Additional observations from a re-analysis of the deposited data

Results flagged for a closer look

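COL12A1, PDGFRA, ITGA1 and PTGS1, described above, were reversed but were named outside the selection rules. Among genes named by those rules, 12 were called in opposite directions against growing cells in senescent DMSO and TRi-1 cells. For these 12, the difference between the 2 senescent groups was itself tested (TRi-1 against DMSO, edgeR). Higher than growing under DMSO and lower in TRi-1 cells were METTL7A (TRi-1 against DMSO -2.17 on the log2 scale), WNT2 (-2.09), DEPP1 (-2.06), SLITRK6 (-1.85), YPEL1 (-1.70) and IGFBP5 (-1.07). Of these, METTL7A and DEPP1 were below growing cells in the senescent control as well (4.79 ± 0.669 against 7.97 ± 0.542 CPM and 3.72 ± 0.463 against 5.47 ± 1.105 CPM), while the other 4 were above growing cells there. Lower under DMSO and higher in TRi-1 cells were PDCD6IP-DT (1.32), LINC00265 (1.04), FOSL1 (0.86), GPNMB (0.80), POLH (0.77) and DNAJB1 (0.34). The senescent control stood at 4.03 ± 0.156 CPM for PDCD6IP-DT and 6.51 ± 0.391 CPM for LINC00265, next to TRi-1 cells (4.02 ± 0.685 and 6.06 ± 0.171 CPM) rather than DMSO cells (1.61 ± 0.0682 and 2.93 ± 0.377 CPM). FOSL1 and POLH had no call in the senescent control against growing cells, and GPNMB and DNAJB1 were lower there. The call of FOSL1 against growing cells (adjusted p = 0.0491) ended without growing replicate 1 or 2, DMSO replicate 2 or 3 or any TRi-1 library, with changes from 0.19 to 0.34. That of YPEL1 (adjusted p = 0.0252) ended with DESeq2 (adjusted p = 0.113), with no filter on low counts, and without growing replicate 2 or 3 or TRi-1 replicate 1 or 3 (-0.51 to -0.39), and that of POLH without growing replicate 3 (0.21).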

How the results depend on the processing

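The counts of genes higher and lower in TRi-1 against growing cells stayed within 1.5 times their main values under each alternative run except the 1.5-fold minimum, which gave 2242 higher and 2093 lower, 3168 kept genes (3068 with no call against DMSO, 54 towards and 46 away from growing), 60 lost, 0 reversed and 61 new. With each growing, DMSO and TRi-1 library left out in turn, higher calls ran from 4276 to 4845, lower calls from 4756 to 5197, genes kept and away from growing from 607 to 1070 (lowest without DMSO replicate 1), kept genes from 7058 to 7759 (5274 to 6523 with no call against DMSO, 513 to 892 towards growing), lost genes from 375 to 693, reversed genes from 70 to 86 and new genes from 425 to 751 (425, 425 and 434 without TRi-1 replicate 1, 2 and 3). Reversed genes numbered 51 with no filter on low counts and 63 without growing and DMSO replicates 1, and a mean CPM of at least 5 left 4012 kept genes with no call against DMSO, among fewer genes tested. The offset on GC gave 1626 genes towards and 1659 away from growing and 240 reversed, and the senescent control as reference gave 356 lost genes; the cause was not tested. Under the same offset, changes against growing cells turned for CDKN2A (-0.14), ROBO2 (0.30), SRM (-0.48), FOSL1 (-0.20), TP53I3 (-0.38), NDUFB10 (-0.025) and ATP5PB (0.051), and that against DMSO for CTSB (-0.063). Replicate numbers did not pair the TRi-1 and growing libraries: same-numbered libraries correlated in their deviations at 0.0242, 0.0415 and -0.111. For growing and DMSO libraries these values were 0.423, 0.113 and 0.263, but growing replicate 3 and DMSO replicate 2 also reached 0.189. The highest value joined the 2 replicates 1 that stood apart from their groups, so pairing by number was not settled there. With the replicate number as a block, 4561 genes were higher and 5024 lower in TRi-1 cells, with 7461 kept, 482 lost, 81 reversed and 566 new genes. No scaling moved the median of all genes by more than 0.1. Depth limits the folds of genes without a growing count, which are bounds against 3 counts.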
